A study of Mus musculus with 51 samples.

Results

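The step from day 1 to day 2 of differentiation was examined in F1G4 WT cells, a line of mouse embryonic stem cells that was aggregated in hanging drops and exposed to Bmp4 at 20 ng/ml. Genes were taken from the time course of WT cells where FPKM (fragments per kilobase of transcript, scaled to sequencing depth) was above 1 on day 1 or on day 2, which gave 11260 of the 24534 genes with a row of their own. For each gene a pseudocount of 0.1 FPKM was added on both days before the log2 ratio, day 2 over day 1, was taken. A gene is said to have risen or fallen where this ratio was past 2-fold, and all ratios below are on this scale.

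RNA-seq of F1G4 WT cells covered the ES stage and the following 3 days, with 2 samples per stage by their labels. Lines derived from F1G4 that lack *Eomes*, *T* or both (*Eomes* KO, *T* KO and dKO) were sequenced on day 2 with 1 sample each. It also covered WT and *Smad4* KO cells of a separate line on days 1 and 2, with 1 sample for each genotype and day by the labels. Legends of the study speak of averaged replicates for some KO comparisons, so the number of samples behind those columns is uncertain. ChIP-seq and ATAC-seq of the study were not analysed here. All of these cells received the same dose of Bmp4, so the study holds no untreated culture of the same age. F1G4 cells had been grown on feeder cells, which were removed by passaging, and the ES stage stands for the aggregates before Bmp4 was added. The *Eomes*, *T* and dKO lines were picked as single clones after CRISPR/Cas9 editing. The dKO line was made from *Eomes* KO cells, so these lines are not independent of each other. The *Smad4* KO line was a clone made with Cre from a separate conditional line (129S/SvEv x C57BL/6). Whether its genetic background differs from that of F1G4 was not examined. Each condition is deposited as a single FPKM column, so values carry no SD and no test between days was possible.

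The primitive streak is the region of the posterior epiblast where cells leave the epithelium and become mesoderm and endoderm. In the embryo Bmp4 from the extra-embryonic ectoderm induces Wnt3 in the epiblast, Wnt3 and Nodal reinforce each other, and these signals switch on the T-box factors Eomes and T (Brachyury). Fgf8 is made by streak cells and is needed for them to move away. At the same time the epiblast loses the factors of naive pluripotency, whereas Nanog and Pou5f1 are kept in the posterior epiblast for some time.

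Of the 11260 genes, 759 (6.74%) rose and 435 (3.86%) fell, and the median log2 ratio over all of them was -0.00. Among the genes that rose, 167 had a log2 ratio above 2 and 41 a ratio above 3. Among those that fell, 123 had a ratio below -2 and 21 a ratio below -3. In the genes that rose the median FPKM went from 0.957 (ES) through 1.08 (day 1) and 3.62 (day 2) to 5.92 (day 3), and 357 of them stood below 1 on day 1. A gene below 1 on one day was examined only because it was higher on the other, so counts and medians over examined members of a list describe those members and not the whole list. In the genes that fell it was 6.48, 4.97, 1.31 and 0.885 at the same stages, and 179 of them stood below 1 on day 2. Most genes that rose thus went from a low level to a moderate one, and most genes that fell had been moderately expressed. Of the 759 genes that rose 732 were protein coding and 14 were long non-coding RNAs, compared with 394 and 25 of the 435 that fell. Just inside the limit stood *Itm2a*, at 5.92 on day 1 and 11.9 on day 2, and just outside it *Ccdc122*, at 1.15 and 2.39.

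**Figure D1:**
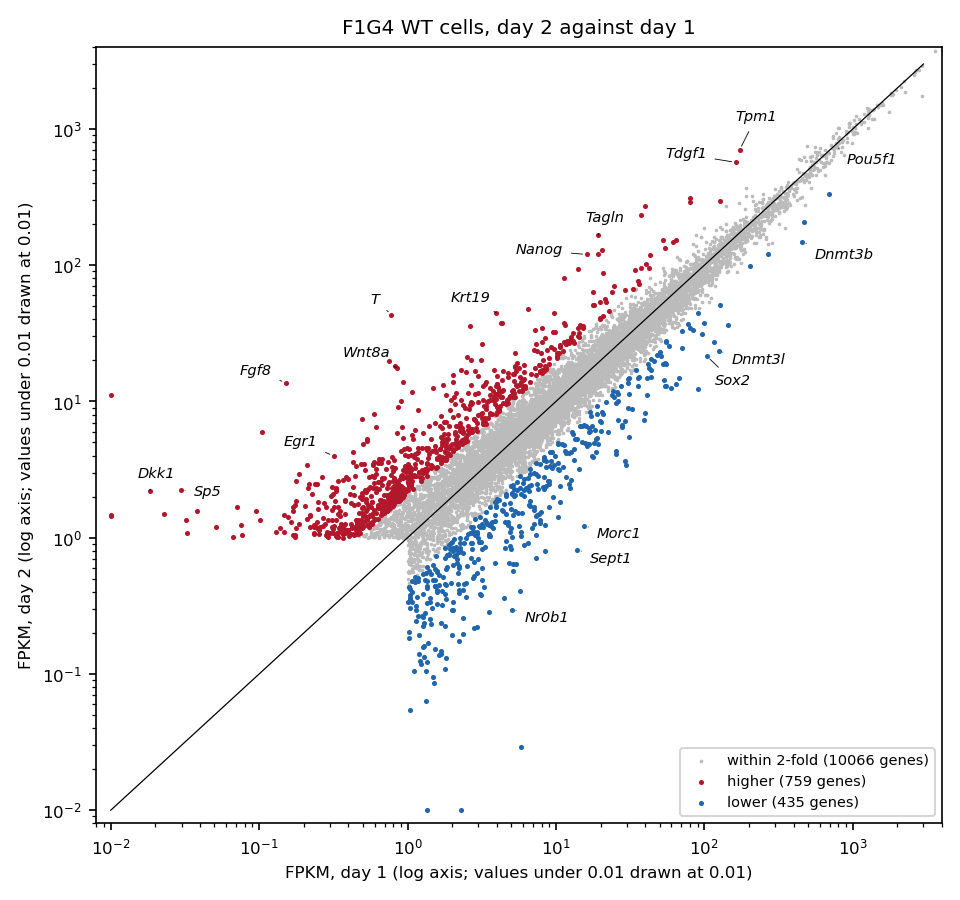
FPKM of the 11260 examined genes on day 1 (x axis) and day 2 (y axis), both log axes, with 1 point per gene and the line of equal values in black. The 759 genes that rose (red) lie above the grey points and the 435 that fell (blue) below them, and *T*, *Fgf8*, *Sp5* and *Dkk1* lie far above the line.

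The other 2 stages of the time course share no sample with days 1 and 2, and they show how the step fits into the whole. Day 3 was more than 2-fold above ES cells in 622 of the 759 genes that rose (81.9%), beside 16.4% of all examined genes. It was more than 2-fold below ES cells in 347 of the 435 genes that fell (79.8%), beside 11.1% of all examined genes. Of the genes that rose, 535 had their highest FPKM on day 3, 199 on day 2 and 25 in ES cells, and by the rule none could peak on day 1. Of those that fell, 259 were highest in ES cells, 167 on day 1 and 9 on day 3. *Dnmt3b*, *Otx2* and *Cxcl12*, described below, are among the genes that were highest on day 1.

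The depth behind these values can be read from the smallest ones. In genes with a single curated RefSeq transcript of more than 1000 bases, low FPKM values multiplied by transcript length fell on whole multiples of fixed steps, for 93.2% of 677 values on day 1 and 93.6% of 627 values on day 2 (within 0.5%). The WT columns held 2 step sizes each, and the columns of the KO cells and of the *Smad4* line 1 each, which are the numbers of samples in the labels. The steps correspond to 25700000 and 23400000 fragments for the samples of day 1 and to 27600000 and 24900000 for those of day 2, after the scaling between samples by the authors. At FPKM 1 a transcript of 1 kb therefore held about 49.1 fragments on day 1 and 52.4 on day 2, summed over the samples. Fragment numbers below are such sums, and their intervals cover counting error only, not the spread between cultures, since PCR copies were not told apart.

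*T* and *Fgf8*, had the highest log2 ratios among genes of the primitive streak. Of 27 factors and ligands of the streak and of nascent mesoderm, 16 were examined, 12 rose and 1 fell, with a median log2 ratio of 1.88. Of the 16, 6 passed the FPKM minimum on day 2 only, and members below it on both days ranged from *Mesp1*, at a log2 ratio of -1.46, to *Gsc*, at 2.08. *T* (chr17:8434423-8442496, mm10), the T-box factor that defines the streak, went from 0.0784 (ES) through 0.778 (day 1) and 43.5 (day 2) to 320 (day 3). Its log2 ratio from day 1 to day 2 was 5.64. About 78 fragments lay behind the value of day 1 (95% Poisson interval 61.7 to 97.3) and 4672 behind that of day 2. *Fgf8* (chr19:45736491-45742941) stood at 0.0172, 0.151, 13.7 and 55.3 at the same stages, a log2 ratio of 5.77 between day 1 and day 2. These were the highest log2 ratios among genes that reached FPKM 10 with transcripts over 300 bases, apart from the histone gene *Hist1h2ap*, which was at 0.000373 on day 1 and 11.1 on day 2. *Hist1h2ap* has near-identical copies, so reads could be divided among them and its value is uncertain.

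*Eomes* (chr9:118478186-118486132), the T-box factor of the early streak, had started earlier and increased less steeply. It stood at 0.952, 2.38, 9.50 and 19.4, a log2 ratio of 1.95 for the step. *Mixl1*, a homeobox gene of the streak, was near the FPKM limit, at 0.451 on day 1 and 1.13 on day 2, and reached 15.6 on day 3. *Evx1*, a homeobox gene of the posterior streak, went from 0.589 to 3.5 (log2 2.39). *Hand1*, a factor of lateral and extra-embryonic mesoderm, went from 1.18 to 8.66 (log2 2.77). *Sp5* and *Sp8*, zinc finger factors downstream of Wnt, went from 0.0297 to 2.24 and from 0.843 to 5.91. The exception in the list was *Otx2*, a factor of the primed epiblast and later of the anterior, which rose from 27.0 in ES cells to 54.1 on day 1 and then fell to 19.3 (log2 -1.48).

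Markers of later or other fates were mostly absent on day 2. Of the 6 markers of cardiac and lateral mesoderm only *Hand1* was above 1 on day 2. In the wider cardiac and lateral list 5 of 27 genes were examined and 3 rose (median 1.45), *Hand1*, *Msx2* and *Apln*, the gene of a vascular ligand (0.246 to 2.46). *Mesp1*, the earliest cardiac factor, was at 0.175 on day 1, listed at 0 on day 2 and at 5.45 on day 3. *Isl1*, *Gata4*, *Foxf1* and *Kdr* lay between 0.0528 and 0.168 on day 2. The neuroectoderm markers *Sox1* and *Pax6* stood at 0.202 and 0.101, the endoderm markers *Sox17*, *Foxa2* and *Sox7* at 0.0492, 0.510 and 0.00616, and the trophoblast markers *Cga* and *Elf5* were listed at 0, with *Gcm1* at 0.746. The 7 streak markers together summed to an FPKM of 15.5 at the ES stage, 16.7 on day 1 and 120 on day 2, then to 471 on day 3, and each of the 7 was above 1 on day 2. Most of the sum at the ES stage and on day 1 was *Nodal*, at 14.1 and 9.91. In RNA of whole cultures, more cells of a kind and more RNA per cell cannot be told apart.

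*Wnt3*, *Wnt5b* and *Wnt8a* reached the highest levels among Wnt ligands on day 2. Of 19 Wnt genes 7 were examined and all 7 rose, with a median log2 ratio of 2.44 (1.28 with a pseudocount of 1). *Wnt8a*, which is expressed in the posterior epiblast and streak, stood at 0.342, 0.847, 17.7 and 41.7 at the 4 stages (log2 4.23 for the step). *Wnt3*, the ligand needed for the streak to form, was already up on day 1, at 0.0794, 2.47, 16.4 and 25.0 (log2 2.69). *Wnt5b* went from 1.93 to 8.71 (log2 2.12), and *Wnt4*, *Wnt6*, *Wnt7b* and *Wnt9a* reached 1.40 to 2.22 on day 2 from 0.176 to 0.329. As 5 of the 7 were below 1 on day 1, they were examined through their value on day 2 alone. The 12 Wnt genes below 1 on both days ranged from *Wnt5a*, at a log2 ratio of -1.71, to *Wnt11*, at 2.84. *Wls* and *Porcn*, which are needed to secrete and to acylate Wnt proteins, also rose, from 7.20 to 33.3 and from 0.571 to 2.02.

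Receptors and targets of Wnt signalling were mixed. Of 44 listed genes 31 were examined, 9 rose and 2 fell, and the median log2 ratio was 0.19. The feedback inhibitors *Axin2* (4.19 to 10.9, log2 1.36) and *Nkd1* (1.02 to 2.39, log2 1.15) rose, as did the extracellular antagonist *Dkk1* (0.0183 to 2.22) and the agonist *Rspo3* (0.268 to 1.22). *Fzd10* rose from 2.50 to 21.2 (log2 3.04), whereas *Fzd7*, another receptor gene, fell from 40.9 to 14.9 (log2 -1.45). *Lef1*, which encodes a factor that binds with beta-catenin, went from 4.37 in ES cells to 8.51 on day 1 and fell to 3.66 by day 2 (log2 -1.19). *Ctnnb1*, the gene of beta-catenin itself, stood at 273 on day 1 and 272 on day 2. Values of *Sp5* and *Dkk1* on day 1 rest on about 3 and 2 fragments. The counting interval of their ratio was therefore wide, 26 to 375 around 75.4 for *Sp5* and 33.5 to 1010 around 122 for *Dkk1*, without a pseudocount.

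Promoters were searched for short motifs to show what sequence lies at the start of genes that rose. The 250 bases before the start site were taken from RefSeq (GRCm38.p6), which gave 1 promoter for 7174 of the examined genes. Shown are *T*, *Sp5* and *Dkk1*, whose promoters hold the core CTTTGA of Tcf/Lef factors, and *Cyr61*, whose promoter holds GGAATG, the core of the Tead motif. Capitals mark these letters on either strand (TCAAAG and CATTCC are the reverse complements) and, in *T*, also AGGTGT, the core of the T-box motif.
*T*, chr17:8434173-8434422, plus strand: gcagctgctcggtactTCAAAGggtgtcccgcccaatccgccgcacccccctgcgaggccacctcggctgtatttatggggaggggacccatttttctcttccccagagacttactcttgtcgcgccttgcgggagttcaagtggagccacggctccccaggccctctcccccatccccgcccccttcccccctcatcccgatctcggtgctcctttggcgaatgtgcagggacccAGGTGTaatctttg
*Sp5*, chr2:70474673-70474922, plus strand: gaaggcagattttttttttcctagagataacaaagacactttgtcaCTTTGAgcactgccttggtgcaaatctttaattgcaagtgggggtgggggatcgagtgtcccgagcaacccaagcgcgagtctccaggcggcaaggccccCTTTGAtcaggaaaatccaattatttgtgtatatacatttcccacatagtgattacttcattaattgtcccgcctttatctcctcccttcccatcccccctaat
*Dkk1*, chr19:30549497-30549746, minus strand: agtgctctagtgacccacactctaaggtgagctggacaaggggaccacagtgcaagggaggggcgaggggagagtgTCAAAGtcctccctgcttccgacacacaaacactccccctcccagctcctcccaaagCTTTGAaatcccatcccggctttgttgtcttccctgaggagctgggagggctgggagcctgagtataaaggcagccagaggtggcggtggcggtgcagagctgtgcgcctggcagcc
*Cyr61*, chr3:145649986-145650235, minus strand: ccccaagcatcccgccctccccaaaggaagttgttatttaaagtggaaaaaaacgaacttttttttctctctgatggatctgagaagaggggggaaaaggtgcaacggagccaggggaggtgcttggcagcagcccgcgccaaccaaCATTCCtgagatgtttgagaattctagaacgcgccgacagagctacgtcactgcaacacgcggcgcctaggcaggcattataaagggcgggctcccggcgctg

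*Sp5* and *Dkk1* each held CTTTGA 2 times, starting 204 and 104 bases before the start site in *Sp5* and 174 and 117 bases before it in *Dkk1*. In *T* the match began 234 bases before the start site, and AGGTGT 14 bases before it. Neither motif was more frequent among the genes that rose. CTTTGA was in 8.91% of the 449 promoters of genes that rose and in 10.0% of all 7174, and AGGTGT in 8.46% and 9.07%. GGAATG was in 15.8% and 10.4%, and CCAAT in 30.3% and 38.8%. These were the widest gaps in either direction for genes that rose among the 18 motifs searched on both strands, some of which contain one another. In the 251 promoters of genes that fell the widest gap was that of GGCGGG, the core of the GC box, in 47.8% against 62.4% of all. No test of these shares was made. A match describes the letters only and is no evidence of binding, and enhancers were not searched.

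Several genes of the Nodal pathway showed a different course, with their lowest level on day 1. Of 24 genes 18 were examined, 6 rose and none fell past 2-fold, with a median log2 ratio of 0.39. *Nodal* stood at 14.1, 9.91, 32.1 and 30.8 (log2 1.69). *Tdgf1*, which encodes its co-receptor Cripto, stood at 625, 163, 569 and 533 (log2 1.80), the second largest gain in FPKM among genes past 2-fold. The feedback inhibitors *Lefty1* (17.7, 2.29, 17.1 and 14.3) and *Lefty2* (75.1, 14.1, 30.0 and 39.3) followed the same course. The receptors *Acvr1b* and *Acvr2b*, the signal carrier *Smad2* and the partner factor *Foxh1* had log2 ratios between -0.32 and 0.13. The receptor *Acvr2a* and the signal carrier *Smad3* stood higher on day 2 but within 2-fold, at 0.65 and 0.97.

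Genes of the BMP pathway were mixed. Of 37 genes of this pathway 20 were examined, 4 rose and none fell past 2-fold, with a median log2 ratio of 0.20. The direct targets *Id1*, *Id2* and *Id3*, inhibitors of basic helix-loop-helix factors, had increased before day 1 and stood lower on day 2. *Id1* was at 22.4, 79.7, 52.1 and 29.2 at the 4 stages (log2 -0.61 for the step), *Id2* at 8.81, 83.7, 63.2 and 25.4, and *Id3* at 14.9, 52.6, 40.4 and 40.9. *Msx1* went from 0.0647 to 4.65 by day 1 and to 5.44 by day 2, whereas *Msx2* rose from 1.13 to 3.27 (log2 1.45) and *Gata2* from 0.825 to 2.02. *Fst*, which encodes the activin and BMP antagonist follistatin, rose from 5.49 to 19.2 and reached 174 on day 3.

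The FGF list split by gene, with 21 of 29 genes examined, 4 higher, 3 lower and a median of -0.04. *Fgf8* and *Fgf17* rose, the latter from 0.629 to 2.55. *Fgf4*, the ligand of naive cells, fell from 40.8 to 11.2 (log2 -1.85) and *Fgf15* from 8.20 to 2.37. The feedback inhibitor *Spry4* fell from 16.7 to 5.94 (log2 -1.48), whereas *Dusp6*, another feedback gene, stood at 51.7 and 63.5. In the Notch list *Hes1*, *Notch3* and *Nrarp* rose and *Dll1* fell, among 12 of 21 genes examined (median 0.37).

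**Figure D2:**
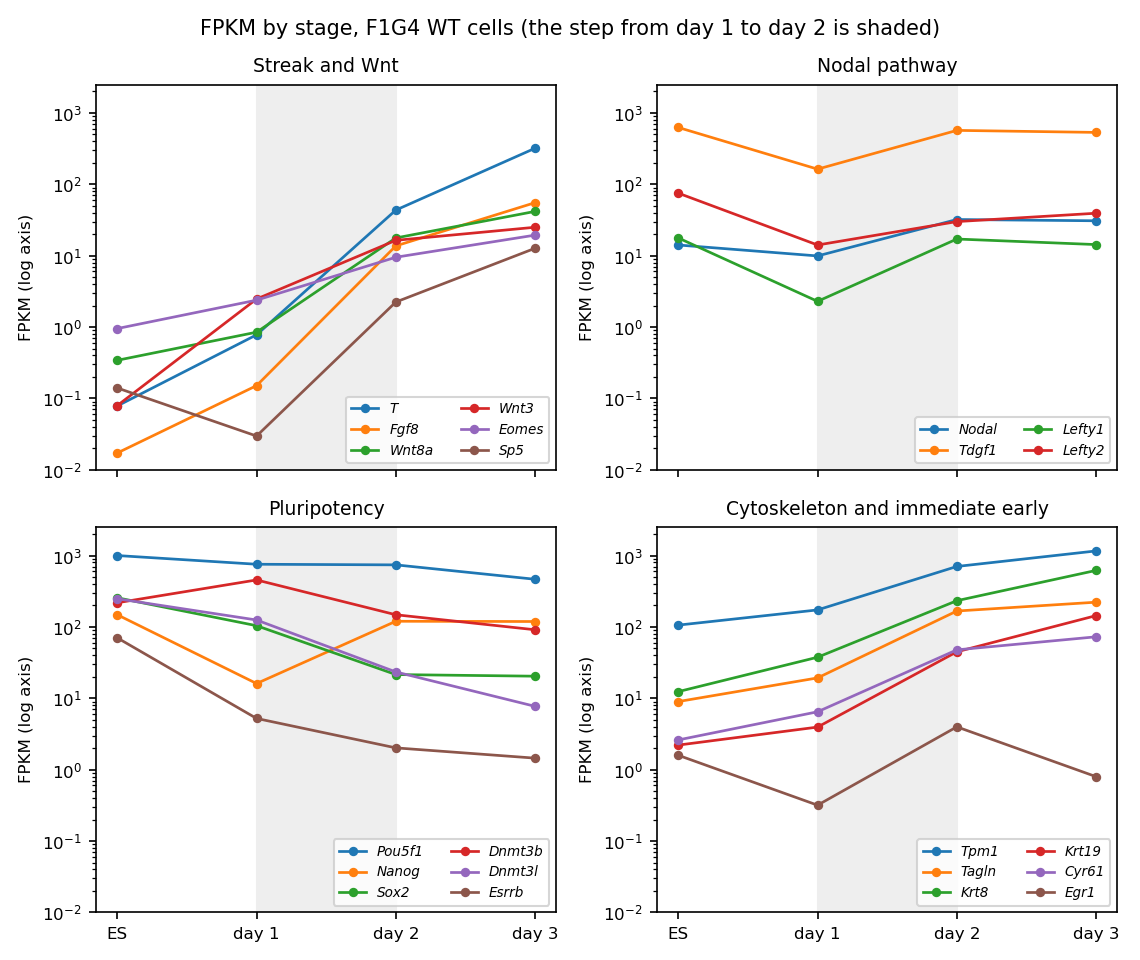
FPKM (log axis) at the 4 stages for genes of 4 groups, 1 line per gene, with the step from day 1 to day 2 shaded. Streak and Wnt genes climb through the step, the Nodal pathway genes shown dip on day 1, *Nanog* alone among the pluripotency genes shown returns from 16.1 on day 1 to 120 on day 2, and *Egr1* peaks on day 2.

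Pluripotency genes divided into those that went on falling and a few that returned. Of 23 naive genes 20 were examined, 11 fell and 2 rose, with a median log2 ratio of -1.14. *Nr0b1*, a nuclear receptor gene of naive cells, stood at 60.3, 5.04, 0.297 and 0.173 (log2 -3.69), *Morc1* at 59.0, 15.5, 1.22 and 0.431 (log2 -3.56) and *Dnmt3l*, the cofactor of the de novo DNA methyltransferases, at 248, 125, 23.4 and 7.71 (log2 -2.41). *Esrrb*, *Zfp42* and *Dppa3* lost most of their level before day 1 and fell further, from 5.22 to 2.02, from 46.0 to 19.9 and from 80.3 to 34.6. *Nanog* (chr6:122707489-122714633) went the other way. Its FPKM was 148 before Bmp4, 16.1 on day 1, 120 on day 2 and 119 on day 3, a log2 ratio of 2.9 for the step. *Tbx3*, a T-box gene expressed in ES cells and in mesoderm, also rose, from 1.01 to 3.36.

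In the list of core and formative pluripotency 26 of 27 genes were examined, 10 fell, 2 rose and the median was -0.54. *Pou5f1*, which encodes Oct4, stood at 755 and 740, and *Lin28a* at 281 and 214. *Sox2* (chr3:34649995-34652461), the partner of Oct4 that is lost from mesoderm, fell from 104 to 21.5 (log2 -2.26). *Sall1* fell from 20.0 to 6.08 and *Foxd3* from 8.94 to 2.59. A group of genes of the formative or primed state had increased from ES cells to day 1 and then fell. *Dnmt3b* stood at 218, 455, 148 and 91.2 (log2 -1.62), *Dnmt3a* at 30.6, 53.1, 14.3 and 11.5 (log2 -1.89) and *Pou3f1* at 4.29, 13.9, 5.28 and 6.52 (log2 -1.38). *Fgf5*, another gene of the primed epiblast, did not fall and stood at 8.39 and 11.5.

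The lowest ratios among genes above FPKM 10 also held germline genes and transcripts of ES cells. *Sept1*, whose name stands in the table as a date, had the lowest ratio, from 13.9 to 0.812 (log2 -3.94). *Lncenc1*, a long non-coding RNA of naive cells, went from 29.9 to 3.41 (log2 -3.09). *Tdrd12* and *Gtsf1l*, of the piRNA pathway or related to it, went from 25.4 to 4.35 and from 25.4 to 4.12. *Ptch1*, the receptor for Hedgehog ligands, fell from 12.2 to 2.46 (log2 -2.27). In FPKM the largest losses among genes past 2-fold were those of *Gsta4* (690 to 332), *Dnmt3b* (455 to 148) and *Hells*, a chromatin remodeler needed for DNA methylation (468 to 206).

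The 10 largest gains in FPKM among genes past 2-fold included cytoskeletal genes and a glucose transporter gene besides *Tdgf1*. *Tpm1*, a tropomyosin gene, stood at 106, 173, 703 and 1160 (log2 2.02), and *Tagln*, which encodes the actin-binding protein transgelin, at 9.00, 19.3, 167 and 222 (log2 3.10). The keratin genes *Krt8* (37.6 to 233), *Krt18* (80.7 to 312) and *Krt19* (3.95 to 44.8) and *S100a10*, the partner of annexin A2 (79.9 to 291), rose as well, and *Anxa2* itself went from 4.25 to 37.7 (log2 3.12). *Slc2a3* and *Slc2a1*, the main glucose transporters of early embryonic cells, rose from 39.8 to 273 and from 52.5 to 154. Of the 22 genes of glycolysis and hypoxia all were examined, 3 rose, none fell past 2-fold and the median was 0.37, with *Pkm* at 1400 and 1410 and *Gapdh* at 88.1 and 90.2. Besides the transporters *Bnip3* rose (log2 1.03), and *Pgk1*, *Ankrd37* and *Slc16a3* were just within 2-fold, at 0.96, 0.96 and 0.90. *Pfkp*, *Hk2* and *Pdk1* were lower on day 2, at -0.89, -0.31 and -0.14. The imprinted RNA *H19* rose from 20.3 to 129.

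Keratin genes made up part of the list of trophoblast and amnion, in which 12 of 20 genes were examined, 9 rose and none fell past 2-fold (median 2.02). Of the 12, 3 passed the FPKM minimum on day 2 only. The trophoblast and amnion list also holds *Eomes* and *Hand1*, which belong to the streak list too, and *Igfbp3* (11.4 to 80.6) and *Wnt6*. Of the 3 defining trophoblast markers *Cga* and *Elf5* were at 0 on both days and *Gcm1* was at 0.105 and 0.746. Among members below FPKM 1 on both days *Esx1* and *Plac1*, genes of the placenta, had log2 ratios of 2.69 and 1.73. What part such cells had in the values of this list was not tested. *Tagln* and *Col5a1* (0.852 to 2.32) were the genes that rose among 14 fibroblast genes, of which 5 were examined (median 0.97). The 7 defining markers of feeder fibroblasts summed to 3.5 on day 1 and 2.99 on day 2. Only *Thy1* among them was above 1 on either day, and *Col1a1*, *Col1a2*, *Col3a1*, *Dcn*, *Lum* and *Postn* lay between 0.0351 and 0.176 on day 1 and between 0.0198 and 0.432 on day 2. *Thy1* went from 2.97 to 1.97, whereas *Col1a1* (0.108 to 0.240), *Col1a2* (0.176 to 0.432) and *Dcn* (0.0928 to 0.229) were higher on day 2.

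Immediate early genes, which respond within minutes to growth factors and to mechanical or other stress, stood higher on day 2. Of 18 genes 16 were examined, 12 rose and none fell past 2-fold, with a median log2 ratio of 1.35, and 3 of the 16 passed the FPKM minimum on day 2 only. *Egr1* stood at 1.59, 0.318, 3.98 and 0.798 (log2 3.29), with about 48 fragments behind the value of day 1 and 641 behind that of day 2. *Fos* stood at 1.16, 0.394, 2.71 and 4.05 (log2 2.51) and *Junb* at 9.94, 2.83, 11.3 and 14.0 (log2 1.97). *Cyr61*, a matricellular gene that responds to Yap and Tead, stood at 2.61, 6.47, 47.7 and 72.7 (log2 2.86) and its relative *Ctgf* at 5.74, 6.08, 14.6 and 14.1. What handling each sample had before lysis is not given in the sources used here, and its part in these values was not tested.

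In the list of the epithelial-mesenchymal transition, which holds many epithelial genes, the genes that rose were mainly epithelial. Of 33 genes 27 were examined, 7 rose (median 0.49), among them the 3 keratin genes above and the tight junction genes *Cldn3* and *Cldn7*, and only *Grhl2*, an epithelial factor, fell (16.9 to 8.32). *Cdh1*, the gene of E-cadherin, stood at 147 and 165, *Cdh2*, that of N-cadherin, at 1.75 and 1.12, and *Vim* at 32.8 and 41.2. Among the ligands and receptors of cell guidance, 6 of 14 examined ephrin and Eph genes rose (18 listed, median 0.79), for instance *Epha1* (8.77 to 23.7). Of the 14, 4 passed the FPKM minimum on day 2 only. Of 20 chemokine and guidance genes 8 were examined, 2 rose and 1 fell (median 0.20). *Sema3c*, a semaphorin gene, rose from 1.43 to 5.30 and *Cxcl12*, a chemokine gene, fell from 10.3 to 3.54. In the matrix and integrin list 7 of 21 examined genes rose (23 listed, median 0.58), led by the basement membrane collagens *Col4a2* (1.12 to 6.17) and *Col4a1* (2.64 to 9.36). The matrix receptor gene *Itgb1* stood at 127 and 190.

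Counts in the amino acid stress and cyclin lists lay near the shares over all examined genes, of which 6.74% rose and 3.86% fell. None of the 19 sterol genes passed 2-fold in either direction (median -0.18), 1 of 20 genes of Atf4 and amino acid stress rose and 1 fell (median -0.23), and of 21 examined cyclin and Cdk inhibitor genes (22 listed, median 0.01) only *Ccnd2* (2.98 to 9.98) and *Cdkn1a* (4.31 to 12.0) rose. *Mki67*, *Pcna* and *Ccnb1* had log2 ratios between 0.00 and 0.01. In the primordial germ cell list 10 of 12 genes were examined, none rose past 2-fold and 3 fell (median -0.08), and *Prdm1* stood at 1.03 and 0.552. Of 25 posterior and Hox genes only 2 were examined (median 0.86), and *Nkx1-2* rose from 0.433 to 2.06. Of 19 paraxial genes 4 were examined, 1 rose and 2 fell (median -0.15), and of 21 neuroectoderm genes 4 were examined, 1 rose and 1 fell (median -0.27). *Trh*, the only examined gene of 15 listed for definitive endoderm, rose from 42.5 to 96.0 but had been at 325 in ES cells. Among short RNA genes with transcripts of at most 300 bases *Snord47* rose most (5.20 to 15.8), on about 17 and 54 fragments.

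**Figure D3:**
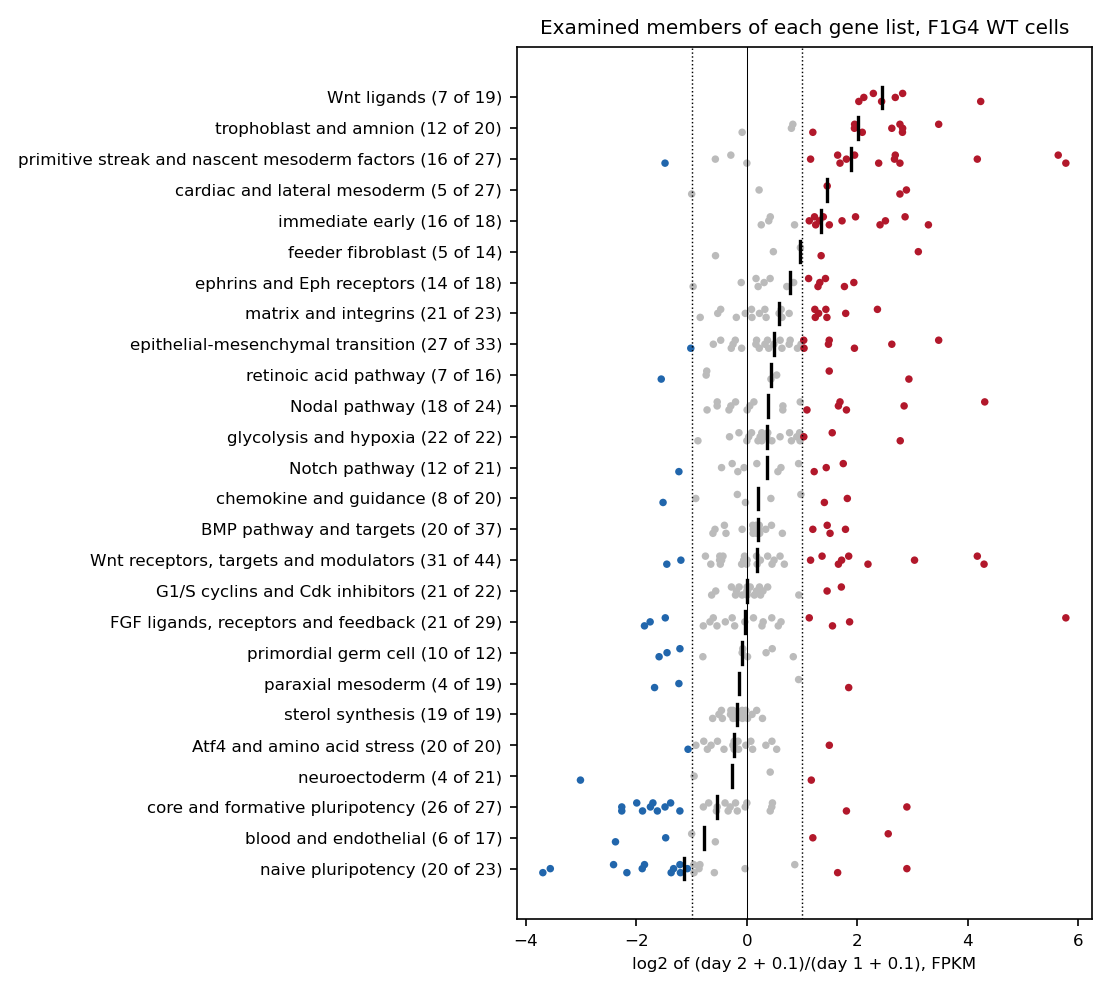
Log2 ratio of day 2 to day 1 (x axis) for the examined members of each list with at least 4 of them, 1 point per gene, red where it rose, blue where it fell and grey in between, with the median as a black bar and 2-fold as dotted lines. The numbers in brackets are members examined and listed. The median is 2.44 for Wnt ligands, of which 5 of 7 passed the FPKM minimum on day 2 only, 1.88 for streak genes and -1.14 for naive pluripotency genes.

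The same step was available in the *Smad4* line, which shares no sample with F1G4. Its values for day 1 and day 2 stand in separate tables that the authors normalized apart, and each is 1 sample. In the WT cells of that line 300 of 11150 genes rose (2.69%) and 532 fell (4.77%). Of the 759 genes that rose in F1G4, 147 also rose there, which is 19.4% of the F1G4 genes (95% Wilson interval 16.7 to 22.3) and 49.0% of the 300, and 13 fell there. Of the 435 genes that fell in F1G4, 187 also fell there, 43.0% of the F1G4 genes (38.4 to 47.7) and 35.2% of the 532, and 1 rose there. Both intervals count genes as independent trials, so they do not measure the spread between cultures, samples or lines. In *Smad4* KO cells 179 of 11178 genes rose (1.6%) and 487 fell (4.36%). Of the F1G4 genes that rose, 52 also rose there (6.85%) and 31 fell, and of those that fell 157 also fell there (36.1%) and 7 rose.

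Streak genes were among those that rose in both WT lines. In the WT cells of the *Smad4* line *T* went from 1.86 to 26.6, *Fgf8* from 0.783 to 19.8, *Eomes* from 2.35 to 24.8 and *Wnt8a* from 4.85 to 37.8. In *Smad4* KO cells *T* stood at 0.839 and 0.891, *Fgf8* at 0.0416 and 0.154 and *Wnt8a* at 0.441 and 0.419, and *Eomes* was at 0.767 and 1.73. Over the streak genes examined in F1G4 the median log2 ratio was 0.80 in the WT cells of that line (6 of 15 examined there rose) and 0.13 in KO cells (1 of 9 rose and 2 fell). *Tdgf1* and *Nodal* fell in KO cells, *Tdgf1* from 17.5 to 3.30 and *Nodal* from 5.96 to 2.53, whereas in WT cells of the line they stood at 126 and 187 and at 25.6 and 32.4.

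*Tpm1*, *Tagln*, *Krt8*, *Krt18*, *Krt19* and the immediate early genes did not rise past 2-fold in the WT cells of the *Smad4* line. None of the 13 immediate early genes examined there rose or fell, with a median log2 ratio of 0.11, beside 12 that rose in F1G4. *Cyr61* stood at 17.6 and 17.1 there, *Egr1* at 0.703 and 0.554 and *Junb* at 9.02 and 6.06. *Tagln* stood at 170 and 154, *Tpm1* at 552 and 804, *Krt8* at 99.3 and 192 and *H19* at 201 and 208. The values of day 1 in that line thus lay above those of F1G4 on day 1 for each of these genes, and for *Tagln* and *H19* above those of F1G4 on day 2. *Nanog* likewise stood at 65.2 and 121 there, against 16.1 and 120 in F1G4. The formative genes differed in the other direction, as *Dnmt3b* stood at 242 and 268 and *Dnmt3a* had a log2 ratio of 0.07, against log2 ratios of -1.62 and -1.89 in F1G4. *Dnmt3l*, *Nr0b1*, *Morc1*, *Dppa2* and *Dppa4* fell in F1G4, in the WT cells of the *Smad4* line and in *Smad4* KO cells, with log2 ratios between -3.84 and -1.83. Whether line, timing, sample or table sets these differences cannot be told apart.

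**Figure D4:**
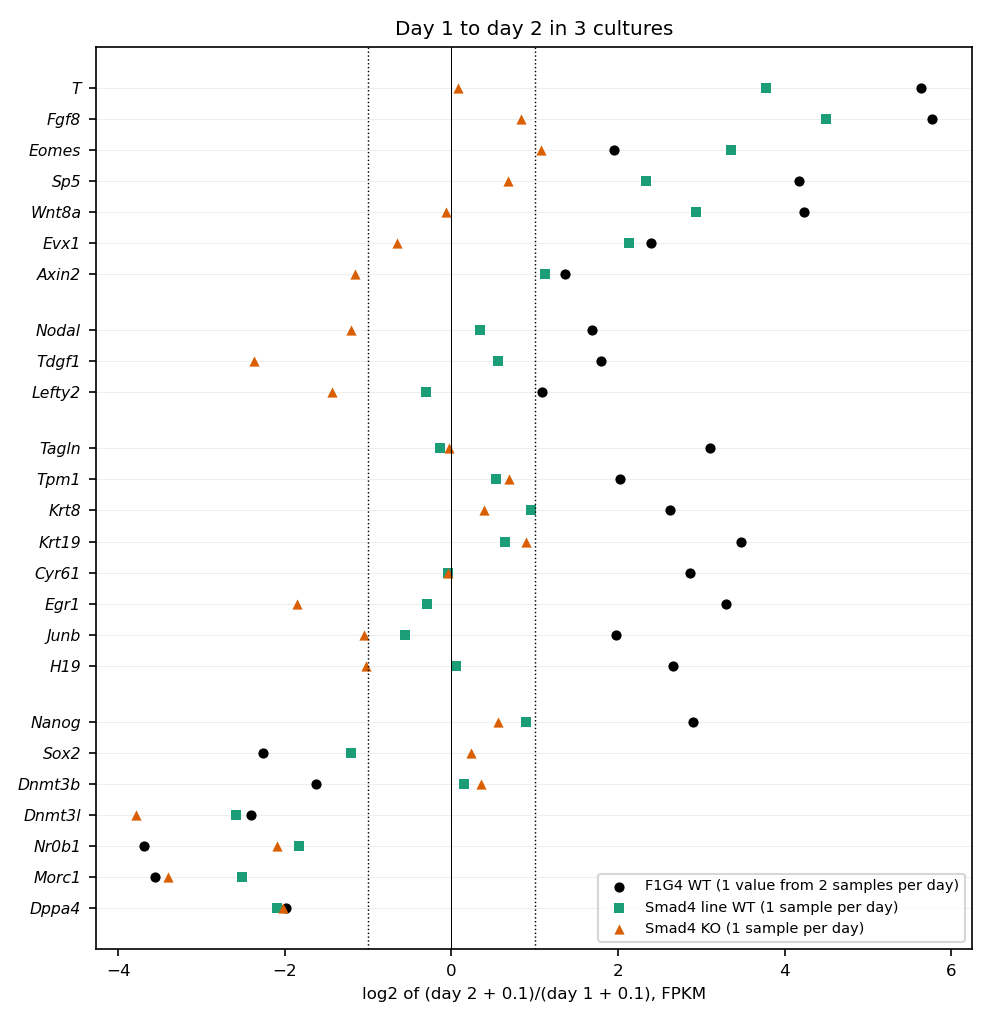
Log2 ratio of day 2 to day 1 (x axis) for 25 named genes in F1G4 WT (circles), *Smad4* line WT (squares) and *Smad4* KO cells (triangles), with 2-fold as dotted lines. *T*, *Fgf8*, *Eomes* and *Wnt8a* lie right of the upper limit in both WT lines. For *Nodal* and *Tdgf1*, which the streak list also holds, and from *Tagln* to *H19* only the circles do. The lowest 4 genes lie left of the lower limit in all 3.

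KO lines made from F1G4 cells give levels on day 2 for the genes that rose. Their ratios to WT share the WT samples of day 2 with the step, so only levels are set side by side, and the WT values in their tables were 0.989 to 1.03 times those of the time course. *T* stood at 0.778 in WT on day 1 and 43.5 in WT on day 2, and at 22.3 in *Eomes* KO, 6.64 in *T* KO and 2.77 in dKO cells on day 2. Reads from an edited gene can still be counted, so the values of *T* and *Eomes* in their own KO do not measure protein. *Fgf8*, at 0.151 and 13.7 in WT, was at 2.38, 7.04 and 3.47 in the 3 KO lines. *Sp5*, at 0.0297 and 2.24, was at 0.606 in *Eomes* KO, 8.77 in *T* KO and 0.521 in dKO cells, and *Hand1*, at 1.18 and 8.66, was at 1.71, 7.02 and 2.78. *Eomes* itself stood at 24.7 in *T* KO cells, above its WT value of 9.50.

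*Wnt8a*, *Nodal* and *Nanog* lay within 2-fold of WT on day 2 in the KO lines. In the same order of lines *Wnt8a* was at 25.5, 20.8 and 32.8 against 17.7 in WT, *Nodal* at 26.3, 37.4 and 24.8 against 32.1 and *Nanog* at 122, 183 and 124 against 120. *Egr1* was at 0.345, 0.665 and 0.191 against 3.98 in WT on day 2 and 0.318 in WT on day 1. *Fos* and *Junb* were also lower than in WT on day 2 in each KO line, at 0.429 to 0.924 and at 4.72 to 9.31. *Krt19* was at 11.3, 37.4 and 15.8 against 44.8, and *Tagln* at 146, 91.8 and 250 against 167. *H19* was at 0.741, 0.992 and 1.16 in the KO lines, below its WT values of 10.4 in ES cells and 129 on day 2, and since all 3 are edited clones, clone and genotype cannot be told apart. With 1 sample in each KO line, how far such levels vary between cultures was not measured.

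**Figure D5:**
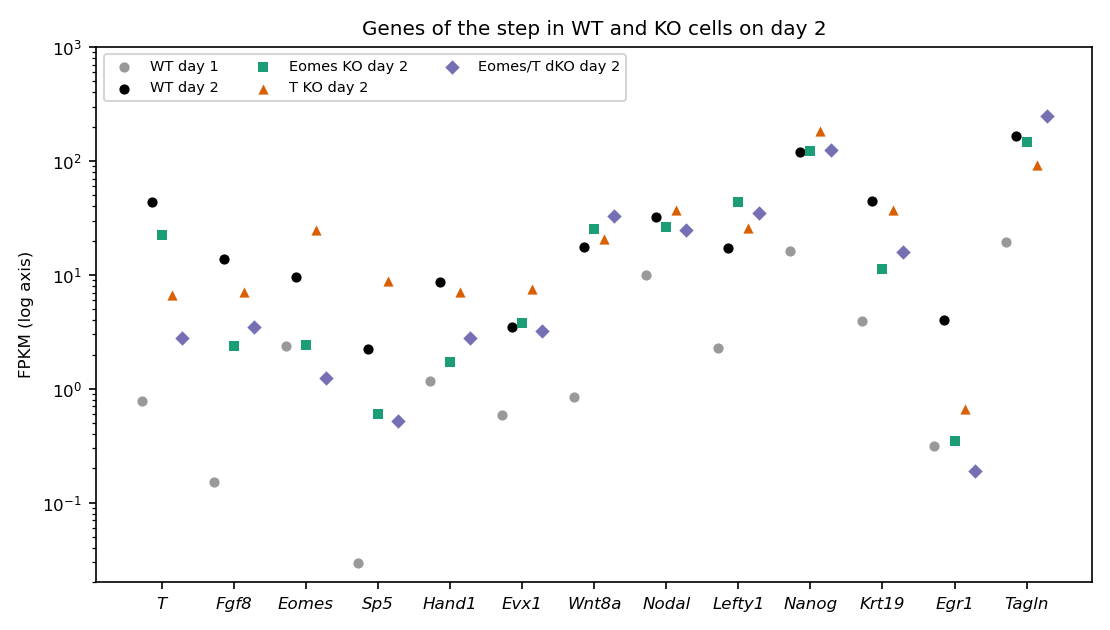
FPKM (log axis) of 13 genes in WT cells on days 1 and 2 and in the 3 KO lines on day 2, 1 point per condition. *Sp5*, *Hand1* and *Krt19* lie lower in *Eomes* KO and dKO cells than in WT and *T* KO cells on day 2. The dKO line was made from *Eomes* KO cells. *Wnt8a*, *Nodal* and *Nanog* lie within 2-fold of WT on day 2, and *Egr1* is below 1 in each KO line.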

How the data were processed

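RNA was prepared from F1G4 WT cells and KO lines, and strand-specific ScriptSeq libraries of total RNA were sequenced paired-end. The deposited FPKM values were computed by the authors, who trimmed reads with cutadapt 2.9, aligned them with HISAT2 2.1.0 to mm10 with the refSeq annotation and ran Cuffdiff 2.2.1, correcting for multi-reads and sequence bias but not for effective length. FPKM is scaled to library size and transcript length, and each of the 9 tables was normalized on its own. Each column is the authors' value for a condition, so no SD, n or test is given. The 3 tables of KO cells on day 3 were not used.

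From 24538 rows, 4 rows with duplicate names were left out. Of 26 names turned into dates those 4 stayed out and the others were restored. Genes above FPKM 1 in either column were compared by log2 ratio with a pseudocount of 0.1. Gene positions, classes and promoters came from RefSeq (GRCm38), where 24445 of 24534 names matched. Fragment numbers were computed for the 15956 genes with a single curated transcript, and steps from those over 1000 bases. Genes named are members of 28 lists, the 15 highest and lowest ratios above FPKM 10, the 10 largest FPKM differences each way and 5 short RNAs each way, besides *Itm2a* and *Ccdc122* at the limit. Members and lists were chosen with earlier results of these data known. The scripts were tested on simulated data. Alternatives were other pseudocounts, FPKM minimums, scalings and gene classes. Computations used Python 3.11.15 with pandas 2.3.3, numpy 2.4.6 and scipy 1.17.1, and figures matplotlib 3.10.9.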

Additional observations from a re-analysis of the deposited data

Results flagged for a closer look

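Of the 393 examined genes named by the rules above, 11 passed 2-fold in opposite directions in F1G4 WT cells and in *Smad4* KO cells. The cells also differ in line, and the differences were not tested. Of all 759 genes that rose in F1G4, 4.08% fell in *Smad4* KO cells, near the 4.36% of all genes examined there. Of the 435 that fell, 1.61% rose there, beside 1.6% of all. Among the 11, of those that rose in F1G4, the log2 ratio in *Smad4* KO cells was -2.37 for *Tdgf1*, -1.20 for *Nodal*, -1.43 for *Lefty2*, -1.16 for *Axin2* and -1.09 for *Trh*. Among genes of growth factor response it was -1.85 for *Egr1*, -1.19 for *Atf3* and -1.05 for *Junb*. It was -1.02 for *H19* and -1.55 for 3830417A13Rik. *Mir5136*, a short RNA that fell in F1G4 on about 40 and 7 fragments, had a ratio of 1.6 there. No gene named by the rules passed 2-fold in opposite directions in F1G4 and in the WT cells of the *Smad4* line.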

How the results depend on the processing

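The counts of genes depended on how low values were treated. With a pseudocount of 1 in place of 0.1, 391 genes rose and 271 fell. Without an FPKM minimum 1361 rose and 951 fell among 24534 genes, and with FPKM above 5 in either column 315 rose and 217 fell among 7939 genes. A pseudocount of 0.01, a shift of the median ratio to 0, TPM, leaving out transcripts of at most 300 bases and protein-coding genes alone gave 732 to 1078 genes that rose and 394 to 606 that fell. The share of genes that fell in F1G4 and also in the WT cells of the *Smad4* line, 43.0%, was 35.4% with a pseudocount of 1 and 32.3% with FPKM above 5. The matching share of genes that rose stayed between 17.8% and 19.4%. List medians also moved. With a pseudocount of 1 that of Wnt ligands was 1.28 and that of naive pluripotency genes -0.89. With TPM those of the cardiac and endoderm lists came within 2-fold, at 0.51 and 0.43, those of the posterior and fibroblast lists passed it, at 1.11 and 1.17, and the paraxial median was 0.72. The minimum of 1 and the pseudocount of 0.1 were kept for TPM, whose values are larger, so 12460 genes were examined. The cardiac list then held 9 examined genes in place of 5, and the endoderm list 3 in place of 1. Effects of the scaling and of a lower minimum were thus not separated. With FPKM above 5 the medians of the paraxial, neuroectoderm, blood and fibroblast lists passed 2-fold, at -1.67, 1.17, -2.38 and 3.10, that of the retinoic acid list was -0.73, and no posterior gene was left. Of 393 named genes 23 came within 2-fold with a pseudocount of 1, none changed direction, and none changed its call with the median shifted to 0. No paired analysis was possible because each stage is a single column, and for the same reason no replicate could be left out. Ratios of genes with few fragments on day 1, such as *Sp5* and *Dkk1*, are limited by depth.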

Other observations

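Genes on the X chromosome had a median log2 ratio of 0.07 over 417 examined genes, with 48 that rose and 24 that fell. Over all examined genes 6.74% rose and 3.86% fell, and the difference was not tested. By transcript length the median ratio was 0.04 in the 2805 shortest examined genes and -0.08 in the 2804 longest. In the retinoic acid list *Dhrs3*, which reduces retinaldehyde, rose from 0.215 to 2.30 and *Crabp2*, which carries retinoic acid to the nucleus, fell from 55.1 to 18.7, among 7 of 16 genes examined (median 0.44). Of 17 blood and endothelial genes 6 were examined, 2 rose and 2 fell (median -0.78). *Flt1*, a Vegf receptor gene, rose from 0.367 to 2.65, while *Pecam1*, which ES cells also express, fell from 12.5 to 2.32.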
